A study of Bos taurus with 12 samples.

Results

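Maturation in vitro takes a cattle oocyte from the germinal vesicle (GV) stage, arrested in the first meiotic prophase, to metaphase II (MII), the stage at which it can be fertilized. The 2 groups described here are GV and MII oocytes of adult Japanese Black cows, 3 Affymetrix bovine arrays each, or 6 of the 12 arrays of a series that also holds prepubertal heifers aged 9 to 12 months at both stages. Each array measured RNA from a pool of 50 oocytes aspirated from follicles of 2 to 8 mm and freed of their cumulus cells. GV oocytes were taken directly after aspiration. MII oocytes had spent 20 to 22 h in a culture medium with fetal bovine serum, still inside their cumulus complexes and were picked by a visible first polar body, so oocytes that failed to mature were not sampled. No hormone is named for the medium, no drug was used and no gene was altered. The adult ovaries came from an abattoir. The labels call the arrays biological replicates but name no animal or collection day, and where pools shared animals the p-values measure only the spread between these pools.

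A fully grown oocyte carries a large store of maternal mRNA, and transcription is nearly silent from the end of growth until the embryonic genome is activated. During maturation, stored mRNAs are read or destroyed in an ordered way: cyclin, MOS and other mRNAs gain poly(A) and are translated, while many others lose their poly(A) tails and decay. The kit used here amplifies RNA before labelling, and each array was scaled to the same overall brightness, so a value is a share of the pool's RNA on a log2 scale. A lower amount of RNA per oocyte and fewer intact oocytes cannot be told apart in such pools.

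All 24016 probe sets that are not controls entered the comparison. Of these, 14409 were kept because their mean log2 value on the 6 adult arrays exceeded 5.63, the 40th percentile. They name 6756 genes. In the gene lists each gene is described by its brightest probe set unless stated. Genes named for a wide gap between the stages or for passing a threshold are described by the probe set that did so. That probe set was not always the brightest of its gene. One log2 unit is a 2-fold difference.

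GV replicate 1 stood apart from the other 5 arrays. Its median log2 signal was 8.305, against 5.882 to 6.518 on those arrays. Its Spearman correlations with them over the kept probe sets lay between -0.153 and -0.026, while GV replicates 2 and 3 correlated at 0.58 and MII replicates 1 and 2 at 0.845. MII replicate 3 was intermediate, at 0.423 to 0.525 with the arrays other than GV replicate 1. The oocyte growth factor genes GDF9 and BMP15 read 9.29 and 6.47 on GV replicate 1, and the zona pellucida genes ZP2 and ZP4 read 10.05 and 5.00. On the other 5 arrays the same 4 genes read 12.13 to 15.82. The median of the 12 oocyte marker genes lay 0.78 above the array's own median on GV replicate 1 and 6.30 to 7.50 above it on the others. A level below 12 at all 4 genes was the criterion for setting GV replicate 1 aside, so these values describe the choice and are no test of it. The comparison was made over all 6 arrays and over the 5 without it.

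**Figure D1:**
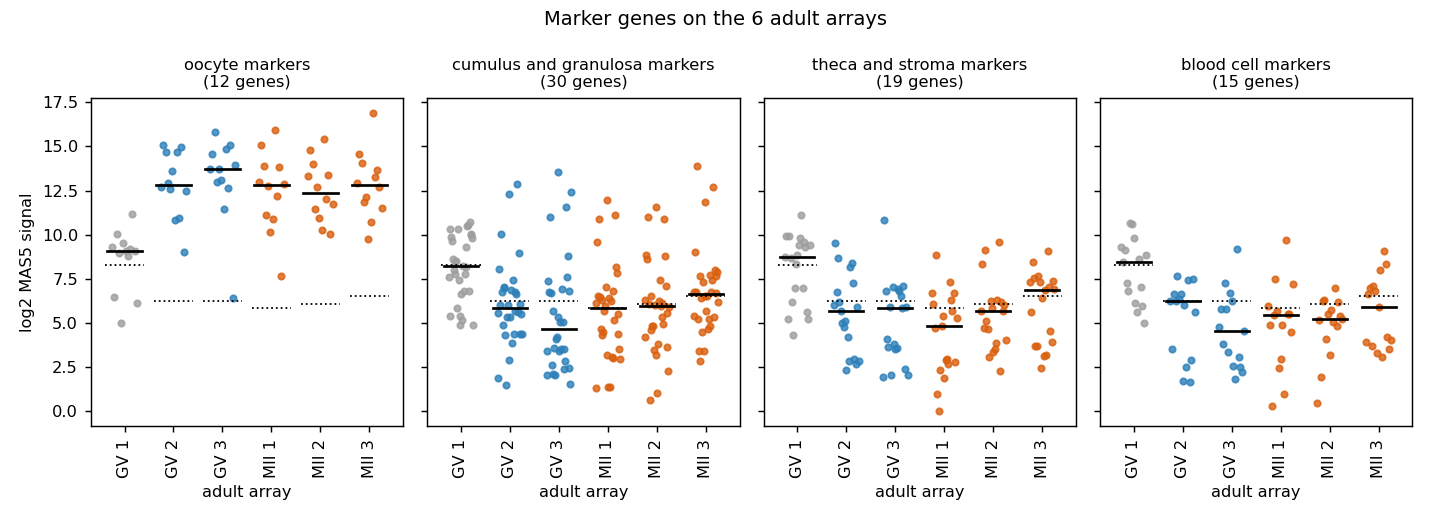
Marker genes of oocytes, cumulus and granulosa cells, theca and stroma, and blood cells on the 6 adult arrays, as log2 signals, 1 point per gene; solid bars are list medians and dotted bars the array medians. The oocyte list median lies 0.78 above the array median on GV replicate 1 and 6.30 to 7.50 above it on the other 5 arrays, while the 3 other lists lie from 1.68 below to 0.42 above the array medians.

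Markers of other cells of the follicle were near or below the array medians on every array. Of 30 cumulus and granulosa markers, 9 to 11 lay above their array's 60th percentile on the GV arrays and 8 to 11 on the MII arrays. Their summed linear signal was 15784.4 to 24377 at GV and 9471.2 to 28517 at MII. Of 19 theca and stroma markers, 6 to 8 lay above the 60th percentile at GV and 3 to 7 at MII. Their summed signal was 9896.5 on GV replicate 1, 2447.9 and 2815.8 on GV replicates 2 and 3, and 1194.3 to 2380.5 at MII. Of the 9 kept genes of this list, 5 had a higher and 4 a lower mean at MII over 5 arrays (median change 0.22). Over 6 arrays 3 had a higher and 6 a lower mean (median change -0.28). Of 15 blood cell markers, 2 to 5 lay above the 60th percentile at GV and 1 to 4 at MII. Their sums were 1136.3 to 7071.9 at GV, the highest on GV replicate 1, and 667.7 to 1764.9 at MII. The lumican gene LUM, a stroma marker, was listed at 0 on MII replicate 1. The part of these cells in the differences below was not tested.

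No probe set passed an adjusted p of 0.05 in limma over the 6 arrays (0 of 14409, 0%), where 989 (6.86%) had an unadjusted p under 0.05 and the lowest adjusted p was 0.2. Without GV replicate 1 the count was also 0 (0%), with 1366 (9.48%) at an unadjusted p under 0.05, of which 854 were higher and 512 lower at MII, and a lowest adjusted p of 0.169. Values of the 3 GV and 3 MII arrays did not overlap at 2232 probe sets (15.5%), and those of the 2 GV and 3 MII arrays at 4022 (27.9%). The median SE of a change was 1.56 over 6 arrays and 1.39 over 5. The 2 fits gave the same sign at 78.6% of probe sets.

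Probe sets were taken to stand with and without GV replicate 1 when the 3 GV and 3 MII values did not overlap, both fits had the same sign and an unadjusted p under 0.05, and all 3 arrays of the brighter stage lay above their own 60th percentile. This held for 478 of 14409 (3.32%). Of these, 352 (2.44%) were higher at MII and 126 (0.874%) were lower. They include 296 with 1 gene symbol, for 284 genes, 196 of them higher and 88 lower. The median size of the change over 5 arrays was 3.54 log2 units for the higher and 3.94 for the lower probe sets. The split follows the scaling: when each array was centred on its median, 451 were higher and 55 lower. At 61 of the 352 higher probe sets all 3 GV values lay below their arrays' medians, and at 31 of the 126 lower ones all 3 MII values did. At such low signals the size of a difference is poorly fixed. The 60th percentile of GV replicate 1 was 8.936, against 6.581 to 7.086 on the MII arrays. A mid-range value there could thus meet the rule for a lower probe set.

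**Figure D2:**
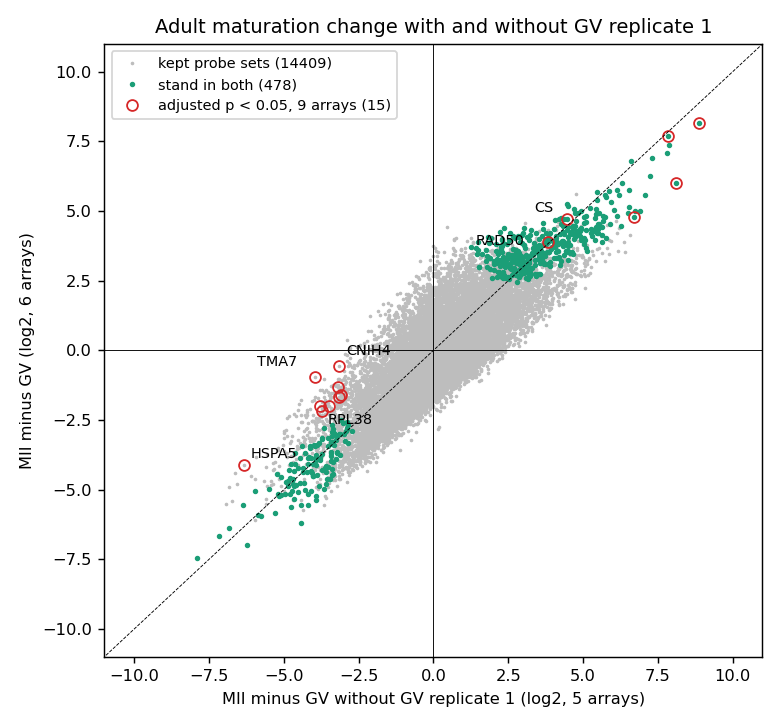
MII minus GV log2 change of each kept probe set over 5 arrays, without GV replicate 1 (x axis), against the change over all 6 arrays (y axis); the dashed line marks equal values. The 478 probe sets that stand in both lie at both ends of the diagonal, and the 9 circled probe sets that are lower at MII lie above it, with smaller changes once GV replicate 1 is included.

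The genes that were higher at MII with the widest gaps between the stages act in chromatin, calcium handling, mitochondria and DNA repair, among others. NSD3, which methylates lysine 36 of histone H3, read 4.54, 3.37 and 2.74 on the 3 GV arrays and 10.82, 10.45 and 11.54 on the MII arrays. All 3 GV values were dim and all 3 MII values bright, a change of 7.39 (SE 1.39) over 6 arrays and 7.88 (SE 1.16) over 5, with adjusted p of 0.2 and 0.169 in limma. A second kept NSD3 probe set changed by 2.96 over 5 arrays (unadjusted p = 0.0683 in limma), and 3 others, too dim to be kept, by 0.40, -1.57 and -0.92. STARD10, a lipid transfer protein, read 4.84, 4.29 and 4.57 at GV against 9.97, 9.68 and 11.25 at MII. The other STARD10 probe set, on average the brighter, changed by only 0.91 over 5 arrays (unadjusted p = 0.482 in limma) and by -0.23 over 6. ATAD1, which extracts misplaced proteins from the outer mitochondrial membrane, read 4.70, 5.77 and 4.80 at GV against 11.64, 10.43 and 13.57 at MII. A second probe set, which does not stand in both comparisons, read 9.32, 3.91 and 7.56 at GV against 10.64, 10.51 and 8.53 at MII, so that GV replicate 1 lay inside its MII range. The brightest ATAD1 probe set went the other way by -0.53 (unadjusted p = 0.391 in limma), from 13.54 and 12.49 to 12.78, 12.28 and 12.38.

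RAD50, the ATPase of the complex that holds and trims broken DNA ends, had tight groups. It read 9.33, 9.58 and 9.47 at GV against 13.26, 13.43 and 13.40 at MII. The 9.33 of GV replicate 1 lay with the other GV values, but also close to that array's own 60th percentile of 8.936. Whether it reflects the level in GV oocytes was not tested. The change was 3.90 (SE 1.19) over 6 arrays and 3.84 (SE 0.65) over 5, on groups whose own SDs were 0.07 (n = 2) and 0.09 (n = 3). A second RAD50 probe set read 12.84 and 8.95 at GV against 11.88, 11.66 and 6.90 at MII, a change of -0.75 over 5 arrays. The partners of RAD50 in the complex did not share the pattern: MRE11 changed by 0.51 (SE 1.28) and NBN by -0.32 (SE 1.47) over 5 arrays, and both changed sign when single arrays were left out.

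CS encodes citrate synthase, the entry enzyme of the citric acid cycle. One probe set read 8.85, 9.31 and 9.90 at GV against 13.52, 14.05 and 14.63 at MII, a change of 4.71 (SE 1.25) over 6 arrays and 4.46 (SE 0.65) over 5. The other CS probe set was bright at both stages, with 14.55 and 14.10 on GV replicates 2 and 3 and 14.33, 13.83 and 15.21 at MII, a change of 0.13 over 5 arrays. At CS, RAD50 and ATAD1 the probe sets of 1 gene thus disagreed, and the brightest CS and ATAD1 probe sets showed no such gap.

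ATP2A2, the calcium pump that refills the endoplasmic reticulum, had 4 kept probe sets, all higher at MII over 5 arrays. The one with the widest gap read 5.74, 6.14 and 3.60 at GV against 11.19, 9.56 and 12.73 at MII. A second read 6.16, 9.75 and 11.33 at GV against 12.87, 12.96 and 12.66 at MII and also stood in both comparisons. The brightest one was at 14.75 and 14.50 on GV replicates 2 and 3 and at 15.30, 15.01 and 15.68 at MII, a difference of 0.71. The size of the ATP2A2 change therefore ranged from 0.71 to 6.29 log2 units between probe sets.

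The other 6 genes with wide gaps serve the cytoskeleton, ribosome assembly and protein traffic. MYH10, a non-muscle myosin heavy chain, read 6.68, 7.39 and 7.15 at GV against 10.38, 10.61 and 10.82 at MII. WASHC2A, a subunit of the endosomal WASH complex, read 5.91, 4.64 and 5.51 at GV against 9.15, 9.03 and 8.97 at MII. UTP4, a part of the machinery that makes small ribosomal subunits, read 7.51, 8.39 and 8.55 at GV against 12.04, 11.84 and 11.73 at MII. In these 3 genes the values of a stage lay close together, with an MII SD of 0.22, 0.09 and 0.16. TRAM2, which acts at the protein translocation channel, read 6.79, 6.95 and 7.17 at GV against 11.15, 10.83 and 10.24 at MII. WDR20, a cofactor of deubiquitinating enzymes, read 8.19, 4.18 and 8.33 at GV against 11.92, 11.76 and 11.32 at MII. ELMO2, which helps switch on the small GTPase RAC, read 5.68, 5.35 and 0.13 at GV against 10.03, 9.14 and 10.79 at MII, so its GV values spread more widely than the gap of 3.46. Single other kept probe sets of ELMO2, WASHC2A and MYH10 went the other way, by -1.47, -0.49 and -0.48 over 5 arrays. At ELMO2 and WASHC2A these were the brightest probe sets of the gene. Another MYH10 probe set, too dim to be kept, changed by -2.12. The brightest WDR20 probe set changed by 1.27 over 5 arrays (unadjusted p = 0.0722 in limma) and another by 0.17.

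**Figure D3:**
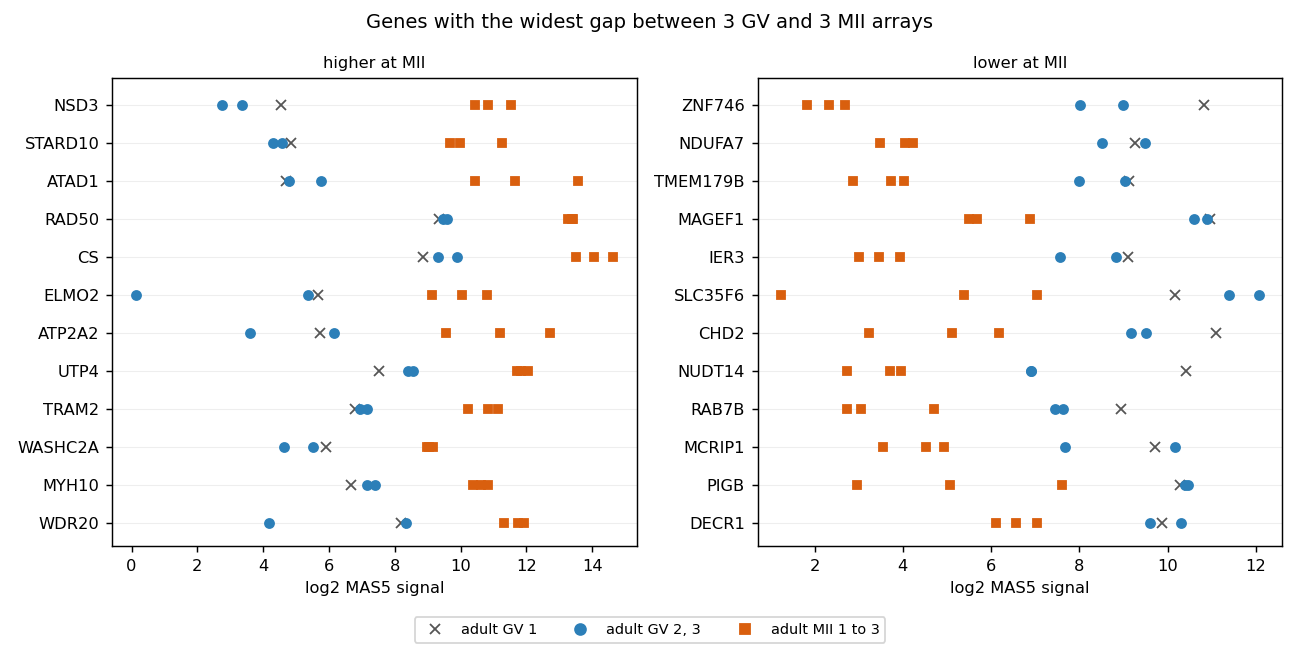
Log2 signals of the 12 higher and 12 lower genes with the widest gap between stages among those that stand with and without GV replicate 1; crosses are GV replicate 1, circles GV replicates 2 and 3, squares the MII arrays. In every row the 3 GV and 3 MII values do not overlap, with gaps of 2.57 (DECR1) to 5.91 (NSD3) log2 units.

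Among the genes that were lower at MII, the widest gap was at ZNF746, a zinc finger repressor of transcription. It read 10.83, 8.99 and 8.01 at GV against 2.33, 1.83 and 2.69 at MII, a change of -6.99 (SE 1.59) over 6 arrays and -6.22 (SE 1.44) over 5. NDUFA7, a subunit of respiratory complex I, read 9.27, 8.52 and 9.49 at GV against 3.48, 4.05 and 4.22 at MII. Another NDUFA7 probe set changed by 1.74 over 5 arrays. MAGEF1, a partner of ubiquitin ligases, read 10.97, 10.88 and 10.59 at GV against 5.68, 5.50 and 6.88 at MII. Its 3 GV values lay close together, GV replicate 1 included. IER3, an early response gene, read 9.11, 8.83 and 7.57 at GV against 3.0, 3.47 and 3.93 at MII. On GV replicate 1 the values of NDUFA7 and IER3 lay close to that array's 60th percentile of 8.936. Whether they reflect the level in GV oocytes was not tested.

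The fatty acid oxidation enzyme DECR1 read 9.88, 9.60 and 10.31 at GV against 6.10, 7.03 and 6.57 at MII. Its other probe set, too dim to be kept, went the other way, by 1.64 over 5 arrays. PIGB, which adds a mannose to membrane anchors, was tight at GV, with 10.27, 10.40 and 10.45, and scattered at MII, with 5.07, 7.60 and 2.97. CHD2, a chromatin remodeller, read 11.10, 9.18 and 9.52 at GV against 3.23, 6.18 and 5.12 at MII, but its other 3 kept probe sets were higher at MII by 1.39 to 2.50 over 5 arrays. The direction given for CHD2 therefore holds for 1 of 4 kept probe sets. A further one, too dim to be kept, changed by -1.03. SLC35F6 read 10.16, 12.06 and 11.38 at GV against 1.25, 5.39 and 7.04 at MII. MCRIP1 read 9.72, 7.68 and 10.17 at GV against 4.94, 3.56 and 4.53 at MII. The remaining 3, TMEM179B, NUDT14 and the endosomal GTPase RAB7B, had gaps of 3.97, 2.95 and 2.75, and their MII values lay between 2.74 and 4.70. Other kept probe sets changed little or went the other way over 5 arrays. They changed by 1.14 and -1.21 for TMEM179B, by -0.31 for NUDT14 and by -0.40 for PIGB. At the probe sets with the widest gap, the MII values of these 12 genes reached no higher than 7.60. The collagen gene COL1A2, a stroma marker, was also among the lower genes that stand in both (9.94, 9.54 and 10.85 at GV, 6.06, 8.33 and 5.6 at MII). No other of the 9 kept theca and stroma markers stands in both.

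Array weights offer a fit that keeps all 6 arrays but counts each by its fit to its group. They gave GV replicate 1 a weight of 0.213 and MII replicate 3 one of 0.47, against 0.77 to 2.913 for the others. With these weights 70 probe sets (0.486%) passed an adjusted p of 0.05 in limma, 52 higher and 18 lower at MII, and 60 of the 70 also stood in both unweighted comparisons. They include NSD3, STARD10, ATAD1, ATP2A2, RAD50, CS and WDR20 among the higher genes above and ZNF746, MAGEF1 and SLC35F6 among the lower ones. The weighted and unweighted fits used the same values, so the overlap of 60 is no independent check. With array weights over the 5 arrays, without GV replicate 1, the count was 0 and the lowest adjusted p 0.0608.

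A fit over 9 arrays borrowed the spread of the 4 prepubertal arrays with an oocyte profile, replicates 2 and 3 at each stage. The adult change still came from GV replicates 2 and 3 and the 3 MII arrays. Replicate 1 of each prepubertal stage was left out for lacking that profile, a choice made with the data known. Its marker values are not given here. The fit called 15 probe sets in limma (0.104%), 6 higher and 9 lower at MII, of which 10 carry a gene symbol. With the 9 arrays centred on their medians, a setting added after the data were seen, the count was 0 and the lowest adjusted p 0.0665, so these calls depend on the scaling. The sizes stayed close: under that setting CS changed by 4.56 instead of 4.46 and RAD50 by 3.94 instead of 3.84, while their SEs went from 0.578 to 0.918 and from 0.605 to 0.959. The 9 lower probe sets all lay high on GV replicates 2 and 3 and read 6.12 to 10.83 on GV replicate 1, so that none of them stands with all 6 arrays.

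Several of the genes that fell in this fit make or fold proteins. CNIH4, which helps receptors leave the endoplasmic reticulum, read 16.11 and 16.35 on GV replicates 2 and 3 and 13.53, 13.16 and 12.50 at MII, a change of -3.17 (SE 0.37, adjusted p = 0.00644 in limma). GV replicate 1 read 8.43. A second CNIH4 probe set also read lower at MII, by -1.23, from 14.19 and 15.05 to 13.38, 13.45 and 13.33. HSPA5, the main chaperone of the endoplasmic reticulum, read 12.14 and 13.50 at GV against 7.17, 6.92 and 5.36 at MII (change -6.34, SE 1.05, adjusted p = 0.0311 in limma). Its 2 other probe sets differed in direction, with changes of 0.99 and 1.66, so HSPA5 cannot be called lower as a gene. RARS1, which charges arginine tRNA, read 15.28 and 14.36 at GV against 11.75, 11.39 and 12.06 at MII, and its second probe set changed by -1.85. RPL38, a protein of the large ribosomal subunit, read 13.72 and 14.03 at GV against 9.97, 10.50 and 9.80 at MII. TMA7, a translation-associated protein, read 15.74 and 15.99 at GV against 13.04, 12.35 and 10.33 at MII.

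Mitochondrial genes made up the rest of the named genes that fell. NDUFA12, a complex I subunit, read 14.55 and 14.73 at GV against 10.61, 11.63 and 11.19 at MII (change -3.50, SE 0.55, adjusted p = 0.0215 in limma). ATP5IF1, the inhibitor of ATP synthase, read 14.71 and 15.63 at GV against 11.43, 12.15 and 12.51 at MII. MRPS6, of the small mitochondrial ribosomal subunit, read 14.47 and 13.79 at GV against 10.79, 9.75 and 10.67 at MII. In all 8 named genes the 2 GV values lay above all 3 MII values by at least 2.20 log2 units. The 2 named genes that rose in this fit were RAD50 (adjusted p = 0.0215) and CS (adjusted p = 0.0118), whose values are given above.

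**Figure D4:**
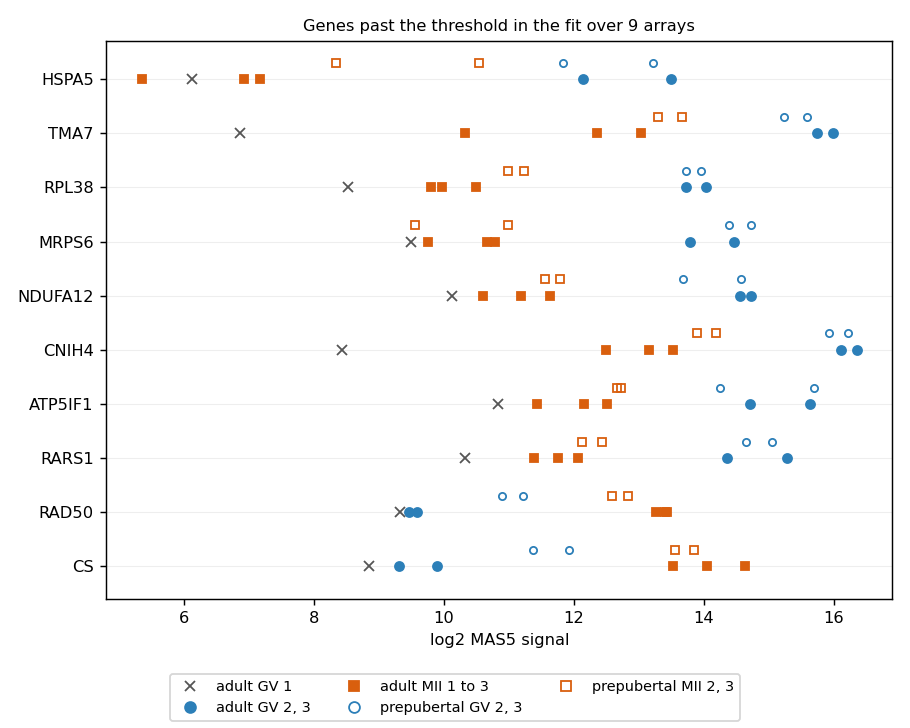
Log2 signals of the 10 named genes past an adjusted p of 0.05 in the fit over 9 arrays; filled symbols are adult arrays, crosses GV replicate 1, and open symbols, set just above, the prepubertal arrays 2 and 3. In the 8 lower genes GV replicate 1 reads 6.12 to 10.83, below GV replicates 2 and 3, and the open symbols separate by stage in the same direction in all 10 genes.

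The prepubertal replicates 2 and 3 took no part in choosing the 478 probe sets. Replicate 1 of each prepubertal stage was left out here too. Their MII minus GV change had the sign of the adult change at 411 of the 478 (86%), against 62.2% of all 14409 probe sets, 71.7% of those with an adult change over 2 log2 units and 80.7% of the 1366 with an unadjusted p under 0.05 over 5 arrays. Their 2 GV and 2 MII values did not overlap, in the adult direction, at 285 (59.6%) of the 478, at 53.4% of those 1366 and at 27.7% of all. The median prepubertal change was 1.42 for the higher and -2.0 for the lower probe sets, which were chosen by the size of the adult change. RAD50 read 10.89 and 11.22 at GV against 12.84 and 12.58 at MII in the heifers, and CS 11.37 and 11.92 at GV against 13.56 and 13.85 at MII. Among the 15 probe sets of the fit over 9 arrays, 14 had the adult sign, but that fit used the spread of these same prepubertal arrays, so this is no independent check.

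Whether maturation changed a probe set differently in adults and heifers was asked with an interaction term. It called no probe set in limma over all 12 arrays (0%, lowest adjusted p of 1) and none over the 9 arrays (0%, lowest adjusted p of 0.999), where 448 (3.11%) had an unadjusted p under 0.05. The widest differences among the genes named above were at NDUFA7 (adult change -5.09 over 5 arrays, prepubertal change 0.75, difference -5.83, SE 2.11), ATP2A2 (6.29 against -0.04, difference 6.33, SE 2.32) and ATAD1 (6.59 against 1.98, difference 4.61, SE 1.76). These differences did not pass the threshold.

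The gene lists below are described over 5 arrays by their counts, since a list of genes read on the same arrays gives no independent test. Among all 6756 kept genes, 3205 (47.4%) had a higher and 3542 (52.4%) a lower mean at MII, and the median change was -0.11. An unadjusted p under 0.05 in limma was reached by 315 genes (4.66%) that were higher and 337 (4.99%) that were lower. No overlap of the 2 GV and 3 MII values was seen at 896 higher (13.3%) and 1046 lower (15.5%) genes. By its brightest probe set, 196 genes (2.9%) stand with and without GV replicate 1.

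**Figure D5:**
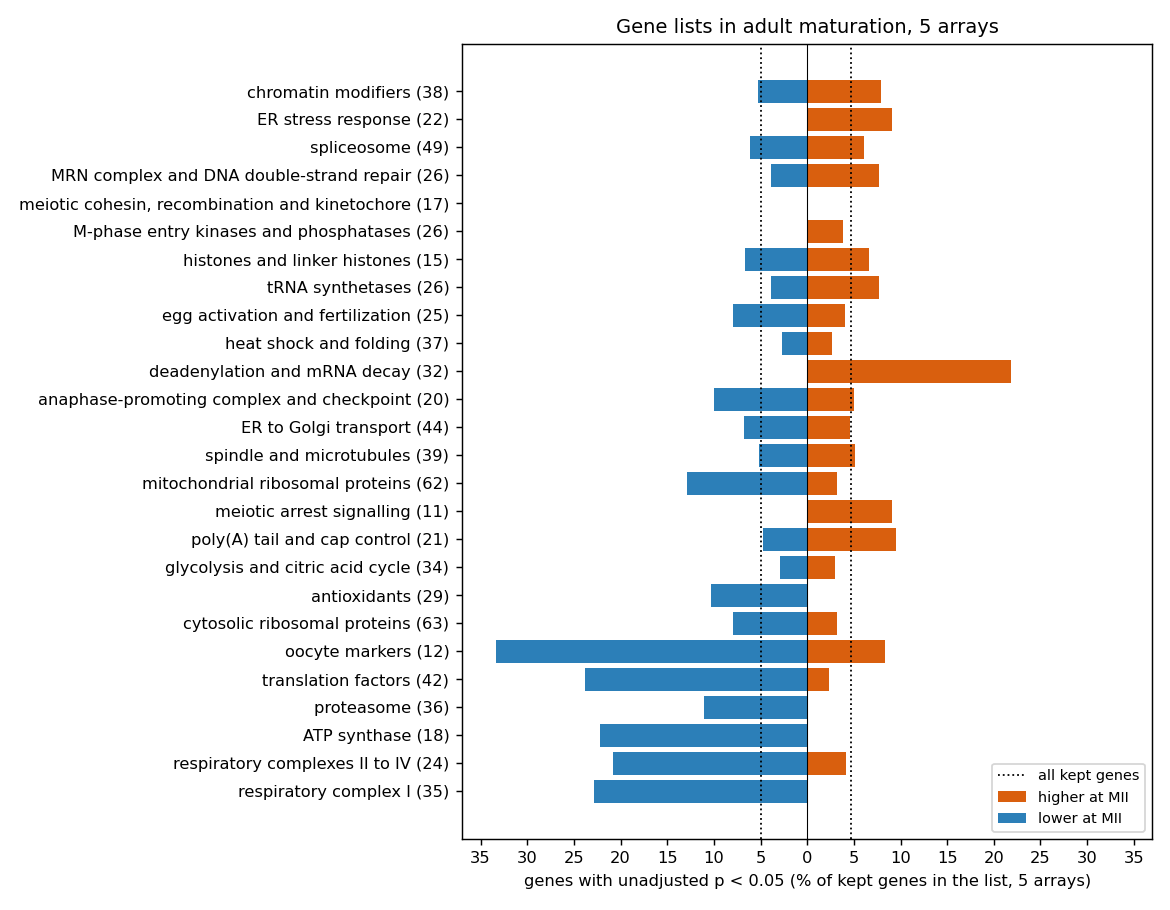
Share of the kept genes of each list with an unadjusted p under 0.05 over 5 arrays, higher (right) and lower (left) at MII, sorted by the list's median change, with the number of kept genes in brackets; dotted lines mark the shares among all kept genes (4.66% higher and 4.99% lower). The respiratory and translation factor lists extend farther to the left than all genes, and the deadenylation list, with 7 of 32 genes, farther to the right.

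Genes of the respiratory chain, which passes electrons to oxygen to drive ATP synthesis, were mostly lower at MII over 5 arrays. Of 35 complex I genes, 28 had a lower mean, with a list median of -1.31, and 8 were lower and 0 higher at an unadjusted p under 0.05. Besides NDUFA12 and NDUFA7, these were NDUFC2 (11.51 and 11.30 at GV against 7.20, 8.08 and 4.59 at MII), NDUFB3 (13.30 and 13.03 against 10.00, 10.47 and 7.35), NDUFS4, NDUFB9, NDUFAB1 and NDUFB11. Of 24 genes of complexes II to IV, 17 had a lower mean (median -1.15, and -0.60 over 6 arrays), with 5 lower and 1 higher at that p. COX5B, a cytochrome c oxidase subunit, read 13.73 and 14.25 at GV against 9.82, 10.77 and 10.16 at MII. SDHC, which anchors succinate dehydrogenase in the membrane, read 14.24 and 14.14 at GV against 11.73, 11.02 and 8.79 at MII. The exception was UQCRFS1, the iron-sulfur protein of complex III, which read 7.32, 8.39 and 9.87 at GV against 11.46, 11.42 and 11.11 at MII.

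Of 18 ATP synthase genes, 14 had a lower mean (median -0.95), with 4 lower and 0 higher at an unadjusted p under 0.05. The 3 respiratory lists rest on few arrays. The complex I median was -0.52 over all 6 arrays, -2.35 without GV replicate 2 and -0.30 without GV replicate 3. Over 6 arrays 3 of the 35 genes were lower at that p, against 213 of all 6756 kept genes. The list medians of the single arrays overlapped between the stages, at 9.23 and 10.94 on GV replicates 2 and 3 and 9.06, 9.48 and 8.44 at MII. For ATP synthase the median was -0.02 over 6 arrays. One complex I gene stands with and without GV replicate 1, NDUFA7.

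Translation factors went both ways, with more on the lower side at MII. Of 42 genes, 27 had a lower and 15 a higher mean (median -0.67), with 10 lower and 1 higher at an unadjusted p under 0.05. EEF1A1, which delivers tRNAs to the ribosome, read 15.14 and 15.31 at GV against 13.07, 13.19 and 13.83 at MII. EIF1AX, which scans for start codons, read 15.51 and 15.82 at GV against 13.51, 13.67 and 14.77 at MII. EIF4E, the cap-binding protein, read 14.38 and 14.22 at GV against 13.51, 13.08 and 12.58 at MII. In these 3 genes both GV values lay above all MII values, while GV replicate 1 read 5.36 to 8.29. EIF4H, a helicase cofactor, went the other way at 3 probe sets, and 1 of them, with 7.81, 8.35 and 9.38 at GV against 11.28, 11.43 and 10.96 at MII, stands in both comparisons. The list median was 0.06 without MII replicate 3, with the same 10 to 1 count, and 0.57 over 6 arrays.

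Cytosolic ribosomal protein genes had a lower mean at MII in 44 of 63 cases (median -0.57), with 5 lower and 2 higher at an unadjusted p under 0.05. The lower ones besides RPL38 were RPL36A, RPL11, RPL34 and RPL13A. RPL4 was higher and stands in both comparisons, with 8.50, 11.41 and 11.69 at GV against 12.93, 13.41 and 15.03 at MII, and RPL27A was higher as well. Over 6 arrays the list median was 0.55, and its sign thus depended on GV replicate 1. Of 62 mitochondrial ribosomal protein genes, 35 had a lower mean (median -0.10, and 0.22 over 6 arrays), 8 were lower and 2 higher at that p, and MRPS17, MRPL9 and MRPS24 stand lower in both comparisons. MRPS17 read 11.03, 11.01 and 11.53 at GV against 7.15, 8.81 and 7.71 at MII. MRPS28 was higher, with 3.14 and 2.90 at GV against 9.10, 8.68 and 11.04 at MII, but read 10.38 on GV replicate 1. Some ribosomal protein genes have near-identical pseudogene copies that a probe set may also read.

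Genes that shorten poly(A) tails or destroy mRNA had 16 higher and 16 lower means among 32 genes (median 0.00), but those that differed at an unadjusted p under 0.05 were all higher at MII, 7 against 0. The RNase DICER1 read 5.18, 6.03 and 3.49 at GV against 10.48, 10.57 and 8.97 at MII. YTHDF3, a reader of methylated adenosine in mRNA, read 6.15, 7.34 and 6.74 at GV against 10.00, 9.91 and 9.03 at MII. Both stand with and without GV replicate 1. BTG1, DCP1A, ZFP36, SMG1 and TUT7 were the other 5, and on these GV replicate 1 read 9.93 to 10.99, close to or above the MII values. The count was 7 higher and 2 lower without MII replicate 3, 3 and 0 without MII replicate 1 and without MII replicate 2, and 2 and 0 over 6 arrays. Over 6 arrays 200 of all 6756 kept genes were higher and 213 lower at that p. Of all kept probe sets, 914, 991 and 1917 had such a p without MII replicates 1, 2 and 3. Over 5 arrays 1366 did.

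In the list of poly(A) and cap control, 21 genes were kept, with 8 higher and 13 lower means over 5 arrays (median -0.27). Over 6 arrays the split was the other way, with 13 higher and 7 lower means (median 0.59). PAPOLA, the nuclear poly(A) polymerase, read 10.00, 9.22 and 4.20 at GV against 11.95, 12.10 and 12.20 at MII and stands in both comparisons. PATL1, which links deadenylated mRNA to decapping, was higher at 3 probe sets over 5 arrays and lower at its brightest (-2.03, unadjusted p = 0.151 in limma). The first of the 3 read 8.79, 6.35 and 2.00 at GV against 9.73, 10.65 and 7.45 at MII, so that GV replicate 1 lay inside the MII range, and no PATL1 probe set stands in both comparisons.

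Of 26 kept M-phase kinases, phosphatases and their partners, 14 had a higher and 12 a lower mean over 5 arrays (median 0.14), and 18 and 8 over 6 arrays (median 1.27). Over 5 arrays 1 had an unadjusted p under 0.05, CKS2, a subunit of cyclin-dependent kinase complexes, with 13.07 and 12.27 at GV against 14.23, 13.89 and 14.00 at MII. CCNB1, cyclin B1, read 13.29 and 13.82 at GV against 13.57, 13.48 and 13.90 at MII. MOS, the kinase that keeps the egg arrested at MII, read 10.96 and 12.62 at GV against 12.22, 12.05 and 13.29 at MII, so both overlapped between the stages. Of 20 genes of the anaphase-promoting complex and its checkpoint, 10 had a higher and 10 a lower mean over 5 arrays (median -0.02). At that p 1 was higher and 2 lower. Over 6 arrays 3 were higher and 0 lower (median 0.69), against 200 and 213 of all 6756 kept genes. No gene of this list stands lower in both comparisons. FBXO5, an inhibitor of that complex, read 12.92 and 12.28 at GV against 8.63, 10.02 and 9.39 at MII. ANAPC7, one of its subunits, read 12.54 and 12.96 at GV against 10.05, 10.77 and 6.25 at MII. ESPL1, the protease separase that cuts cohesin, was higher, with 6.02, 9.05 and 9.19 at GV against 12.02, 11.17 and 10.42 at MII, and stands in both comparisons.

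Of the oocyte markers, GDF9 read 12.71 and 13.73 at GV against 12.97, 13.34 and 12.95 at MII, and BMP15 15.10 and 14.56 at GV against 15.08, 14.78 and 14.57 at MII. Their changes were -0.13 (SE 0.54) and -0.02 (SE 0.37) over 5 arrays, given as a description since levels of these genes decided which array was left out. ZP2 and ZP4 were part of the same choice, so the counts of this list and its shift between the fits are also descriptive only. Of the 12 markers, 4 were lower and 1 higher at an unadjusted p under 0.05. NLRP5, a maternal-effect gene, read 13.61 and 13.10 at GV against 10.15, 10.94 and 9.77 at MII. ZP2 and ZP3 changed by -1.26 and -1.47. KPNA7, the nuclear import receptor of oocytes, was higher, with 14.67 and 14.86 at GV against 15.92, 15.40 and 16.90 at MII. Over 6 arrays none of the 12 had such a p, and the list median went from -0.58 to 1.18, and GV replicate 1 read 5.00 to 11.16 for these genes.

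KIT, the receptor for the granulosa signal KIT ligand, had 4 kept probe sets that disagreed. The brightest was lower at MII, with 14.95 and 15.07 at GV against 13.83, 13.37 and 13.67 at MII (change -1.39, SE 0.40). Another 2 were higher and stand in both comparisons: one read 8.74, 7.33 and 8.23 at GV against 10.66, 11.42 and 12.17 at MII, the other 8.13, 7.62 and 8.36 at GV against 10.59, 11.11 and 10.57 at MII. The fourth overlapped between the stages. In the heifers the brightest changed by -1.25 and the 2 others by -0.25 and 0.99.

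Of 38 kept chromatin modifiers, 27 had a higher mean (median 1.08 over 5 arrays, 1.30 over 6), and 3 were higher and 2 lower at an unadjusted p under 0.05, close to the shares among all kept genes. Besides NSD3, the remodelling ATPases SMARCA4 (5.15, 9.22 and 9.85 at GV, 11.60, 12.12 and 12.44 at MII) and SMARCA5 (5.24, 12.05 and 11.92 at GV, 13.20, 13.22 and 13.79 at MII) stand in both comparisons. SUV39H1, which methylates lysine 9 of histone H3, stands lower, with 8.99, 10.90 and 10.25 at GV against 6.74, 7.31 and 7.60 at MII. The third remodelling ATPase, SMARCA2, read 13.08 and 12.35 at GV against 10.41, 10.72 and 8.16 at MII, opposite to SMARCA4. Without MII replicate 3 the count of higher genes was 10. In that fit 1917 of all kept probe sets had such a p in either direction, against 1366 over 5 arrays. The number at that p thus rose over all probe sets too.

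Of 49 spliceosome genes, 26 had a higher and 23 a lower mean over 5 arrays (median 0.38), with 3 genes on each side at an unadjusted p under 0.05. Over 6 arrays 34 had a higher and 15 a lower mean (median 0.73), with 4 higher and 0 lower at that p. Among all 6756 kept genes, 200 were higher and 213 lower at that p over 6 arrays. The 3 that were higher over 5 arrays all stand with and without GV replicate 1. U2AF1, which recognizes the end of the intron, read 4.98, 6.31 and 7.65 at GV against 11.50, 9.61 and 10.87 at MII. SF3B4 read 9.86, 9.08 and 7.16 at GV against 10.80, 11.11 and 12.16 at MII. PRPF8, the core of the spliceosome, read 4.85, 10.12 and 8.60 at GV against 11.64, 11.17 and 12.03 at MII. The 3 that were lower over 5 arrays were SF3B3, SNRPC and LSM3, and for these GV replicate 1 lay below the MII values.

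Of 36 proteasome genes, 24 had a lower mean (median -0.70), 4 were lower and 0 higher at an unadjusted p under 0.05, and PSMB4 and PSMF1 stand in both comparisons. PSMB4 read 9.00, 9.63 and 12.46 at GV against 7.48, 7.53 and 3.89 at MII. The list median was 0.50 over 6 arrays. Of 22 kept genes of the ER stress response, 16 had a higher mean (median 0.68) and 18 over 6 arrays (median 1.84), and the kinase EIF2AK3 and the mannosidase EDEM3 were higher at that p. Of 29 antioxidant genes, 21 had a lower mean (median -0.34, and 0.29 over 6 arrays), among them the peroxiredoxin PRDX2 (13.80 and 15.18 at GV, 11.82, 12.22 and 12.65 at MII) and the mitochondrial superoxide dismutase SOD2 (13.48 and 13.41 at GV, 12.38, 11.75 and 11.60 at MII).

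Several probe sets of 1 gene give further readings of that gene. Some share the stem of their names, as the 2 of BMPR1B below do, and may read the same sequence. The counts that follow include such pairs, so their readings are not independent. Of 1613 genes with 2 or more kept probe sets, 35 had at least 2 that were higher at an unadjusted p under 0.05 over 5 arrays, 2 had at least 2 that were lower, and 11 had probe sets on both sides. The genes named next were picked after their values were seen. BMPR1B, a receptor for bone morphogenetic proteins, had 2 that read 5.93 and 7.28, and 6.41 and 4.18, at GV and 11.47, 11.27 and 13.29, and 10.70, 10.69 and 12.93, at MII. GV replicate 1 read 10.87 and 11.03 there, within or next to the MII range. AFG3L2, a mitochondrial protease, had 3 of 4 probe sets on the higher side. HYPK, a ribosome-associated chaperone, had 3 of 4, and its brightest read 13.75 and 13.37 at GV against 14.63, 14.26 and 15.01 at MII. The 2 genes on the lower side were CNIH4 and CHIC2. Among the 478 probe sets that stand in both, the other kept probe sets of the same gene went in the same direction at 188 of 279 (67.4%), against 54.3% for all kept probe sets, 58.9% for those with a change over 2 log2 units and 62.5% for those with an unadjusted p under 0.05 over 5 arrays.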

How the data were processed

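Gene expression was measured on Affymetrix bovine arrays, 3 per group. The deposited values are log2 signals made by the authors with MAS5, per the submitters' processing notes, which give no version. The trimmed mean of the linear values was about 500 on every array, so no further scaling was applied. Symbols came from the array annotation: 13292 probe sets have 1, 86 several and 10638 none. MII minus GV was fitted with limma 3.58.1 in R 4.3.3 (intensity trend, Benjamini-Hochberg adjustment over 14409 kept probe sets, 40th percentile filter), over 6 arrays and over 5, and tested on simulated data. Genes named are the 12 higher and 12 lower with the widest gaps between stages among those that stand in both fits and have 1 symbol, those past the threshold in either fit or in the fit over 9 arrays, and members of the gene lists. The comparison, lists and rules were chosen with earlier results of these data known. Alternatives changed the scaling, filter, model and arrays. Replicate numbers were checked for pairing: same-numbered GV and MII arrays had deviations correlated at -0.11, 0.038 and -0.086, so the fits did not pair them. The check included GV replicate 1 and cannot show whether pools shared animals or a collection day. The number of arrays limits the precision. No sequence or genome position was used here.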

Additional observations from a re-analysis of the deposited data

How the results depend on the processing

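With 2 or 3 pools a group, and a median SE of 1.39 to 1.56 log2 units, a count of 0 does not show that values stayed the same. Signals near the array medians are poorly fixed in size. Of the 17 alternatives to the fit over 6 arrays, 13 gave 0 adjusted calls. The exceptions were median centring (2 calls), the replicate number as a block (5), array weights (70) and a looser threshold, an unadjusted p under 0.05 and a change past 1 log2 unit (989). Leaving out any 1 of the 6 arrays gave 0 calls. For the 5 arrays, the fit over 9 arrays called 15, that fit with quantile normalization 16, of which 12 were the same, and that fit with median centring 0 (lowest adjusted p 0.0665), both added after the data were seen; the looser threshold gave 1364. The replicate block gave 0 calls over 5 arrays. Its value beside the 6 arrays is given only for completeness, since the labels do not say that equal numbers pair pools.

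The set of 478 was 482 with quantile normalization (386 shared), 506 with median centring (359 shared), 500 with no filter, 429 with a 60th percentile filter and 512 with a pseudocount of 32. Median centring moved the median change over 6 arrays from -0.13 to 0.66 and quantile normalization to 0.34; over 5 arrays they gave 0.14 and 0.01. The interaction gave 0 calls under the 15 alternatives run, with 127 to 448 probe sets at an unadjusted p under 0.05.

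Of 2325 values of 146 probe sets over 5 arrays, 18 had the opposite sign, all at 6 genes whose changes were smaller than their errors. GDF9 read 0.02 with quantile normalization (0.02 over 9 arrays) and -0.65 to 0.38 when single arrays were left out. BMP15 read 0.13 with quantile normalization (0.11 over 9 arrays), 0.08 with median centring (0.08 over 9 arrays), 0.08 with array weights and -0.29 to 0.25 without single arrays. Without single arrays the lowest and highest values were -0.10 and 1.56 for MOS, -0.17 and 0.36 for CCNB1, -1.56 and 2.58 for MRE11 and -1.61 and 0.54 for NBN. NBN read 0.29 with the replicate block. The cause was not tested. None of the 378 values of the 24 genes with the widest gaps over 6 arrays had the opposite sign. These genes were chosen because their GV and MII values do not overlap, so leaving out an array could not reverse the sign. The count is therefore no check of them.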
